A study of Mus musculus with 7 samples.

Results

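Messenger RNA of the enzymes that carry glucose to lactate was measured in the duodenum of mice labelled Ppara lox/lox and Ppara I-KO, an intestinal knockout of Ppara. The members were chosen by name, as 10 genes that encode glycolysis enzymes: Hk2, Gpi1, Pfkl, Aldoa, Tpi1, Gapdh, Pgk1, Eno1, Pkm and Ldha. Of these, 9 have a row among the 14795 genes of the table, and Eno1, which encodes enolase 1, was not analysed here. Whole duodena came from male mice of predominantly C57BL6/J background, kept for weeks on high fat diet (HFD) by the methods of the study, while the labels give no diet. The 3 Ppara lox/lox mice carried floxed Ppara alleles without Cre and were littermate controls. The 4 Ppara I-KO mice carried the same floxed alleles together with the Villin-Cre transgene, which acts in epithelial cells and not in the muscle, vessels or immune cells of the gut wall. According to the labels, food was taken away at 12:00 for 6 h and given back for 6 h before the tissue was taken. The age of these mice at that time was not given in the sources used here.

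Glycolysis splits glucose into pyruvate in the cytosol and yields ATP and NADH on the way. Hexokinases trap glucose as glucose 6-phosphate, phosphofructokinase makes the committed step, and lactate dehydrogenase turns pyruvate into lactate and restores NAD+. Small intestinal enterocytes use glutamine and glucose as fuels and also pass dietary glucose on to the blood. Ppara encodes PPARα, a nuclear receptor for fatty acids that drives genes of fatty acid oxidation. Many glycolysis genes carry in their promoters the letters ACGTG, the core that hypoxia-inducible factors bind, and CACGTG is bound by ChREBP and MYC. The promoters of Hk2, Pgk1 and Ldha (its upstream start) are shown because each holds ACGTG at least 2 times. Each is the 250 bases before a RefSeq transcription start in GRCm38, 5′ to 3′ on the strand of the gene, and capitals mark ACGTG on either strand.

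Hk2, chr6:82774455-82774704, minus strand: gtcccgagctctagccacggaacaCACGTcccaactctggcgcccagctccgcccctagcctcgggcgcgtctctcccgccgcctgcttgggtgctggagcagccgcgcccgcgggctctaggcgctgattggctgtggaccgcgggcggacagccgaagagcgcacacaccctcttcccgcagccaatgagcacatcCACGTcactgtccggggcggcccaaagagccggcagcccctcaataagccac

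Pgk1, chrX:106186850-106187099, plus strand: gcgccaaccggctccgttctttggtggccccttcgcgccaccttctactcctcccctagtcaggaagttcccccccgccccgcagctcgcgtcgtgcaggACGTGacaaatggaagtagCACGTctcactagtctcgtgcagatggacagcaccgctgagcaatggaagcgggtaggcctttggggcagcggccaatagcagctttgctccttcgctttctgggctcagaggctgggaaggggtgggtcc

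Ldha, chr7:46845554-46845803, plus strand: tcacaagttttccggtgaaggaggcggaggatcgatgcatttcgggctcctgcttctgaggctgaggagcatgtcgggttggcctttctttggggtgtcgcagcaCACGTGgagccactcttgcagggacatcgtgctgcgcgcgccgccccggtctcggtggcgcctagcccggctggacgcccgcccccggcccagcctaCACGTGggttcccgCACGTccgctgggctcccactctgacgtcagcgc

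In Hk2 the first base of the matches lay 226 and 52 bases before the start, and in Pgk1 150 and 131 bases before it. In Ldha, CACGTG lay 145 and 48 bases before the start, where ACGTG matches both strands and the matches overlap, and a further match lay 34 bases before it. Of the 9 genes, 5 (Hk2, Aldoa, Pgk1, Pkm and Ldha) held ACGTG in at least 1 promoter, against 18.5% of 27025 genes in the RefSeq table. The letters GCGTG, the other spelling of that core, were found in 3 of the 9 genes, Pfkl, Gapdh and Ldha (its downstream start), and in 30.9% of all genes. PPARα with its partner RXR binds a direct repeat of AGGTCA with any 1 base between the copies. This exact repeat was in 0 of the 9 and in 0.0407% of all genes, too rare for the 0 to be informative. All these matches are letters in a window and not binding sites.

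The libraries held about 20700000 to 25900000 reads on listed genes, as estimated from the smallest step between low values. Values are normalised counts as deposited (CPM, read counts scaled by adjusted library sizes). Hk2, the lowest member, rested on an estimated 332 to 556 reads per library. The Ppara gene gave 53.4, 49.3 and 63.2 CPM in the lox/lox libraries (replicates 1 to 3), and 33.05, 40.6, 47.5 and 69.9 CPM in the libraries labelled I-KO replicates 1 to 4. The library labelled I-KO replicate 4 thus had more Ppara than any lox/lox library, although a count over the whole gene does not show the floxed exon. The loss of Ppara is therefore not shown by these totals, and the members are also given without that library. All 10 enterocyte markers were present, with summed levels of 58650.3 to 69331 CPM in lox/lox and 56741 to 74673 CPM in I-KO. Markers of pancreatic acinar cells summed to 382 CPM in the library labelled I-KO replicate 1 and to 24.6 to 87.2 CPM in the others, with Cpa1, Ctrb1, Cela3b, Pnlip, Prss2 and Cel at 0 in at least 1 library. Skeletal muscle markers (2 of 6 in the table) summed to 70.6 CPM there, of which Acta1 gave 60.3 CPM, and to 11.1 to 21.2 CPM elsewhere. Smooth muscle markers summed to 2210.3 CPM there and to 1692 to 1970.5 CPM elsewhere. Proliferating crypt cell markers summed to 569 to 664.5 CPM in lox/lox and 414 to 764 CPM in I-KO, and immune markers to 5721 to 6704 CPM and 4377 to 7004 CPM. Markers of stroma and vessels summed to 252 to 362.5 CPM in lox/lox and 352 to 386 CPM in I-KO, of enteric neurons and glia to 12.5 to 14.4 CPM and 12.6 to 16.8 CPM, of adipocytes to 18.9 to 34 CPM and 19.6 to 28.2 CPM, and of red blood cells (2 of 6 in the table) to 6 to 10 CPM and 3.6 to 12 CPM. Of 52 marker genes tested by limma, 0 had an adjusted p (all genes, 0.0299%) and 4 an unadjusted p (all genes, 4.74%) below 0.05. In 3 of the 52 the I-KO libraries all lay above those of lox/lox (all genes, 2.91%) and in 1 all below (all genes, 3.28%). Named after their values were seen, these are Fabp1, for the liver type of fatty acid binding protein and a known PPARα target, with all I-KO libraries lower (log2 fold change -0.57; limma adjusted p = 0.822), the stem cell marker Lgr5 (0.40; adjusted p = 0.932), and, with all I-KO libraries higher, the collagen gene Col3a1 (0.41; adjusted p = 0.887), the glial gene S100b (0.33; adjusted p = 0.954) and the enterocyte gene Vil1 (0.14; adjusted p = 0.954). In a bulk sample, fewer cells of a type and less RNA per cell cannot be told apart.

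None of the 9 enzymes passed limma's test between the genotypes. At an adjusted p of 0.05, 0 of 9 were called, against 0.0299% of the 13399 genes tested, and at an unadjusted p of 0.05 by limma the count was also 0 of 9, against 4.74% of all genes. The smallest adjusted p of a member was 0.954. The mean was higher in I-KO for 8 of the 9, against 50.6% of all genes, and Hk2 was the exception. The median log2 fold change of the members was 0.09, with a range from -0.29 (Hk2) to 0.19 (Pkm), and that of all genes was 0.0017. In Pfkl and Pkm all 4 I-KO libraries lay above all 3 lox/lox libraries, which 2.91% of all genes did, and in 0 members did they lie below, which 3.28% of all genes did. The 95% interval of a member, unadjusted for the number of genes, reached a median of 0.20 on either side on the log2 scale. Smaller differences were thus mostly not detectable with 3 and 4 mice, even for a gene taken alone. Larger ones could also miss the adjusted threshold, as did Pdk4 below, with a log2 fold change of -1.02 (limma adjusted p = 0.954).

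**Figure D1:**
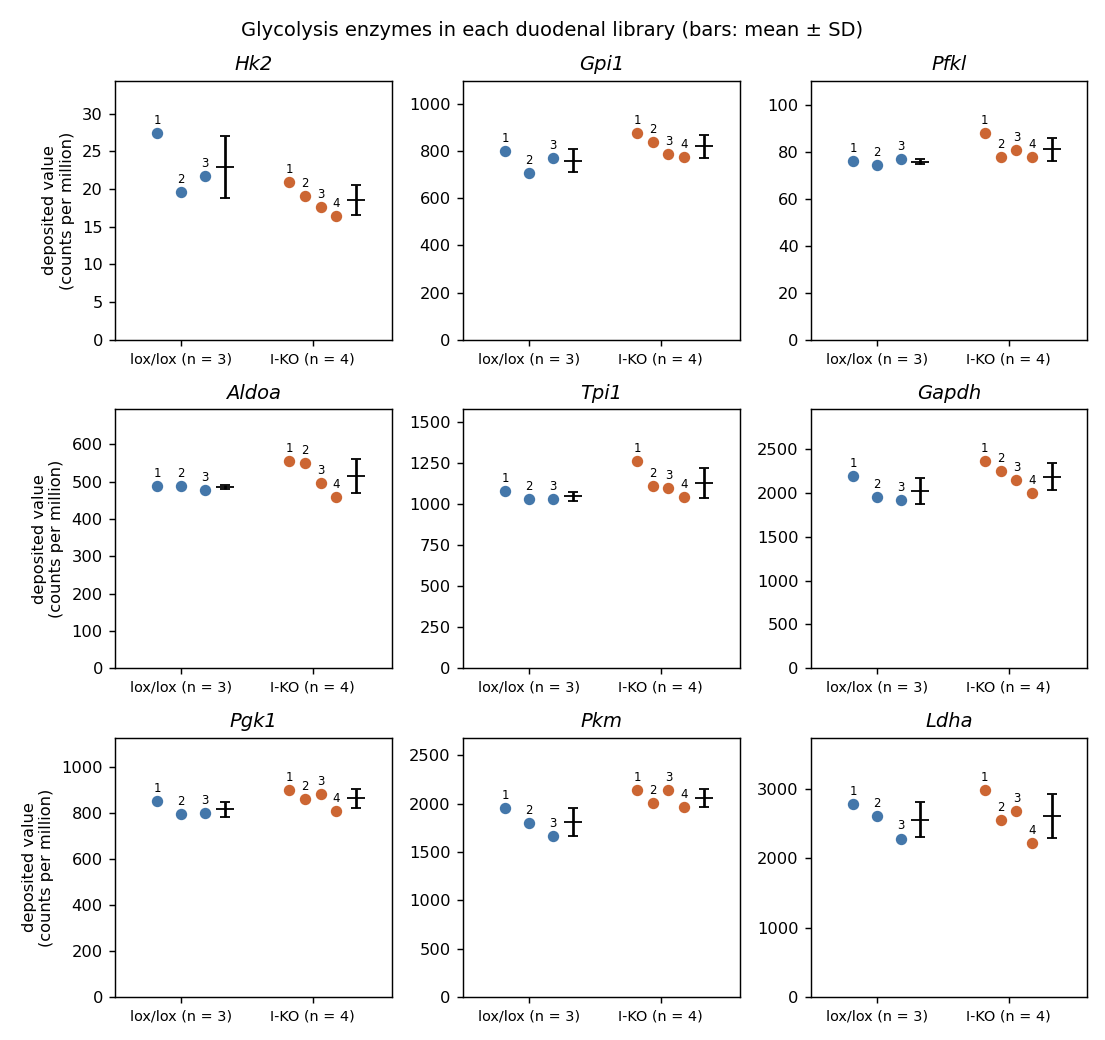
Normalised counts (CPM, vertical axes from 0) of the 9 glycolysis enzymes in 3 lox/lox (blue) and 4 I-KO (orange) libraries. Points are libraries with their replicate number, and bars are the mean and SD of each group. Hk2 is the 1 enzyme with a lower I-KO mean, and the I-KO points of Pfkl and Pkm all lie above the lox/lox points.

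Hk2 encodes hexokinase 2, the inducible hexokinase of muscle, fat and growing cells, and lies on chromosome 6 of GRCm38 from 82725025 to 82774454. Its values were 27.4, 19.6 and 21.7 CPM for lox/lox replicates 1 to 3, against 21.0, 19.1, 17.6 and 16.4 CPM for I-KO replicates 1 to 4. I-KO replicates 2 to 4 were lower than all lox/lox libraries, and I-KO replicate 1 fell inside their range. The lox/lox mean was 22.9 ± 4.06 CPM (SD, n = 3) and the I-KO mean 18.5 ± 1.99 CPM (SD, n = 4). The log2 fold change was -0.29 (standard error (SE) 0.13, 95% interval -0.58 to 0.0039), with an adjusted p of 0.954 and an unadjusted p of 0.0525 from limma. Over the 7 values, the two-sided exact permutation p was 0.114, and groups of 3 and 4 can reach 0.0286 at the lowest. The log2 fold change was -0.16 without lox/lox replicate 1, the highest library, -0.39 without lox/lox replicate 2 and -0.23 without the library labelled I-KO replicate 4.

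Gpi1, for glucose-6-phosphate isomerase, and Pfkl, for the liver type of phosphofructokinase, follow in the pathway. Gpi1 lies on chromosome 7 from 34201330 to 34230336 and gave 799, 706 and 770.5 CPM in the lox/lox libraries. The I-KO libraries gave 876, 838, 787 and 772 CPM, and the groups overlapped. Gpi1 had a log2 fold change of 0.11 (SE 0.09; limma adjusted p = 0.954), which was 0.06 without lox/lox replicate 2 and 0.14 without the library labelled I-KO replicate 4. Pfkl, on chromosome 10 from 77986947 to 78010083, gave 76.4, 74.8 and 77.0 CPM in lox/lox and 88.3, 77.9, 80.8 and 78.0 CPM in I-KO libraries. These groups did not overlap, the lowest I-KO value being less than 1 CPM above the highest control. The log2 fold change of Pfkl was 0.09 (95% interval -0.09 to 0.27, adjusted p = 0.954 from limma), 0.05 without I-KO replicate 1 and 0.11 without the library labelled I-KO replicate 4. The exact two-sided permutation test gave p = 0.114 for Pfkl and p = 0.229 for Gpi1.

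The next enzymes cut the 6-carbon sugar and interconvert its 3-carbon products. Aldoa, for aldolase A, lies on chromosome 7 from 126795234 to 126800751 and gave 489, 488 and 479 CPM in the lox/lox libraries. The I-KO libraries had 555, 549, 497 and 458 CPM, which enclose the lox/lox values. Tpi1, for triosephosphate isomerase, lies on chromosome 6 from 124810586 to 124814296 and gave 1080.3, 1030.3 and 1034 CPM in the lox/lox group. Its I-KO values of 1263, 1110.1, 1102 and 1045 CPM were above the lox/lox range in 3 of 4 libraries. The log2 fold changes were 0.08 (SE 0.09) for Aldoa and 0.10 (SE 0.09) for Tpi1, with adjusted p = 0.959 and 0.954 from limma. The exact two-sided permutation test gave p = 0.343 and p = 0.143. Without I-KO replicate 1 the log2 fold changes were 0.04 for Aldoa and 0.05 for Tpi1, and without the library labelled I-KO replicate 4 they were 0.14 for both. Aldoa was at 0.0485 without I-KO replicate 2.

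Gapdh and Pgk1 encode glyceraldehyde-3-phosphate dehydrogenase and phosphoglycerate kinase 1, the enzymes of the first ATP-yielding stretch. Gapdh lies on chromosome 6 from 125161715 to 125166467 and is widely used as a reference gene. It gave 2196, 1949.5 and 1916 CPM in lox/lox and 2360.1, 2245, 2144 and 1993 CPM in I-KO libraries, with overlap between the groups. Its log2 fold change was 0.11 (SE 0.09, 95% interval -0.10 to 0.32, adjusted p = 0.954 from limma; exact two-sided permutation p = 0.2). Pgk1, on chromosome X from 106187100 to 106203699, gave 854, 797 and 799 CPM in lox/lox and 902, 863, 884 and 807 CPM in I-KO libraries. Here 3 of 4 I-KO libraries exceeded the whole lox/lox range. For Pgk1 the log2 fold change was 0.08 (SE 0.08, adjusted p = 0.954 from limma; exact two-sided permutation p = 0.143). Without I-KO replicate 1 the log2 fold changes were 0.08 for Gapdh and 0.06 for Pgk1, and without the library labelled I-KO replicate 4 they were 0.16 and 0.11. Gapdh was at 0.17 without lox/lox replicate 1. Of the 100-base windows of the longest coding transcript, 78.0% in Gapdh and 67.0% in Pgk1 occur also in other annotated genes, so the levels of these members are uncertain by reads shared with near-identical copies. The share was 9.8% or less in the other 7 members. Windows that Aldoa may share with another annotated gene of the same name were not counted.

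Pkm and Ldha encode pyruvate kinase M and lactate dehydrogenase A. Pkm lies on chromosome 9 from 59656368 to 59679375, and its value sums the M1 and M2 forms, which a gene count cannot tell apart. Pkm stood at 1957, 1803 and 1664 CPM in the lox/lox libraries. Its I-KO values, replicates 1 to 4, were 2145, 2009, 2142 and 1962 CPM, with the lowest I-KO library just above the highest lox/lox library. The lox/lox mean was 1808 ± 147 CPM (SD, n = 3) and the I-KO mean 2064 ± 93.4 CPM (SD, n = 4). Its log2 fold change was the highest of the 9 members, at 0.19 (SE 0.09, 95% interval -0.0031 to 0.39), with an adjusted p of 0.954 and an unadjusted p of 0.0531 from limma. The exact two-sided permutation test gave p = 0.0286, the smallest it can give, as 1 of 9 such tests on the members. Without the library labelled I-KO replicate 4 the log2 fold change of Pkm was 0.22, and without I-KO replicate 1 it was 0.17. Without lox/lox replicate 3 it was 0.13.

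Ldha lies on chromosome 7 from 46841475 to 46855627. It gave 2777, 2610.3 and 2285 CPM in lox/lox and 2989, 2557, 2681 and 2225 CPM in I-KO libraries, so the I-KO values enclose those of lox/lox. Its log2 fold change was 0.03 (SE 0.12, 95% interval -0.24 to 0.29, adjusted p = 0.990 from limma; exact two-sided permutation p = 0.857). The sign turned to -0.04 without I-KO replicate 1, -0.05 without lox/lox replicate 3 and -0.0097 with each column scaled to the same total, and the value was 0.10 without the library labelled I-KO replicate 4.

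**Figure D2:**
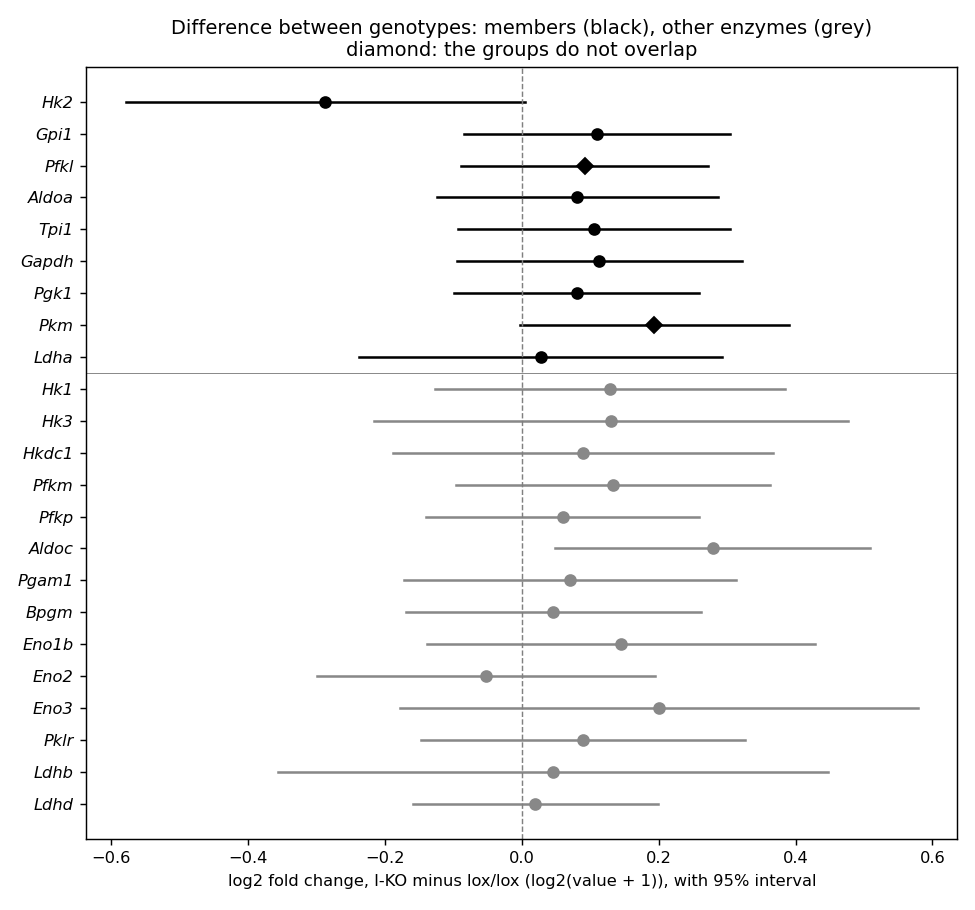
Log2 fold changes between I-KO and lox/lox duodena on the log2(value + 1) scale, with 95% intervals from limma. Shown are the 9 members (black) and 14 other enzymes listed for the steps of the pathway (grey). Diamonds mark genes whose groups do not overlap. The intervals of all 9 members include 0, and that of Aldoc does not.

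Most members were high or low in the same libraries. The library labelled I-KO replicate 1 was highest of the 7 in 8 of 9 members, all but Hk2, or 88.9%, whereas 22.5% of all genes tested were highest there. Set against the lox/lox mean of each gene, the members were on average 0.18 higher on the log2 scale in I-KO replicate 1. The average was 0.07 in I-KO replicate 2, 0.05 in I-KO replicate 3 and -0.06 in the library labelled I-KO replicate 4. Within lox/lox it was 0.09 in replicate 1, -0.04 in replicate 2 and -0.05 in replicate 3. Lox/lox replicate 1 thus stood above I-KO replicates 2, 3 and 4. Without I-KO replicate 1 the median log2 fold change of the members was 0.05, and without the library labelled I-KO replicate 4 it was 0.14. Of the 10 marker lists, 6 also had their highest sum in I-KO replicate 1. These were enterocytes, smooth muscle, skeletal muscle, pancreatic acinar cells, stroma and vessels, and enteric neurons and glia. The enterocyte sum was nearly as high in I-KO replicate 3 (74588 CPM against 74673 CPM). Of the enterocyte genes, only Apoa1 and Apoa4 were themselves highest in I-KO replicate 1, and Sis was lowest there. The part of these cell types in the members' values was not tested.

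**Figure D3:**
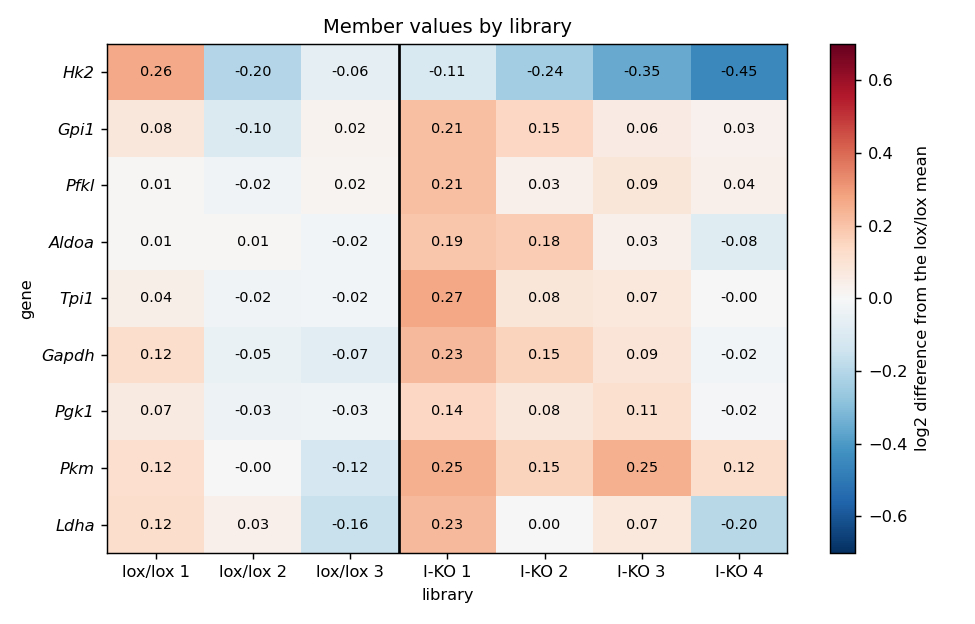
Log2 difference of each member (rows) from its lox/lox mean in each of the 7 libraries (columns), with the value in each cell and a colour scale from -0.7 to 0.7. I-KO replicate 1 holds the highest value in 8 of 9 rows, and Hk2 runs lower in all 4 I-KO libraries than its lox/lox mean.

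Of the genes outside the pathway lists, the 5 whose log2 values were most like the mean of the members over the 7 libraries were Rfc2, Asap1, Sys1, Sfn and Neu1. Pearson's r with the member mean was 0.984, 0.981, 0.980, 0.978 and 0.978, picked as the highest among all genes outside the lists. The members themselves had r between 0.406 (Hk2) and 0.958 (Gapdh) with that mean, of which each is a part. All points share library and scaling, and these values are a description.

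Set per kilobase of exon, levels in lox/lox ran from 3.84 CPM per kilobase for Hk2 and 11.4 for Pfkl to 773 for Ldha. Between these lay Gpi1 with 118, Aldoa with 167, Pkm with 361.5, Pgk1 with 364, Tpi1 with 381 and Gapdh with 489 CPM per kilobase. The lox/lox ranges of Pkm, Pgk1 and Tpi1 overlapped, so that their order is not set. By the length of the longest transcript Pkm, at 743 CPM per kilobase, stood above Tpi1 (652), Gapdh (614) and Pgk1 (448), with Ldha at 1409. By the longest coding transcript, which is shorter in Gapdh, Gapdh had 1423 CPM per kilobase, close to Ldha. Hk2 and Pfkl were lowest by each of the 3 lengths.

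Several genes encode the same activity at some steps. At 4 of these steps the shares of such genes were compared, and the members were not always the main one. Hkdc1, for a hexokinase domain protein, held 91.7% ± 0.577 (SD, n = 3) of the mRNA per length of Hk1, Hk2, Hk3 and Hkdc1 in lox/lox and 92.5% ± 0.374 (SD, n = 4) in I-KO. Hk2 held 4.05% ± 0.338 (SD, n = 3) in lox/lox and 3.12% ± 0.36 (SD, n = 4) in I-KO. Its share was 3.7% to 4.38% in lox/lox and 2.68% to 3.56% in I-KO libraries, without overlap, while the CPM values of Hk2 overlapped. The divisor is mostly Hkdc1, which was highest in I-KO replicate 1 (535 CPM), where Hk2 fell inside the lox/lox range in CPM. How often such shares separate by group over all genes was not counted. The shares did not overlap by longest transcript either, but that length only rescales each gene by a constant and is hardly a separate check. Hk1, the hexokinase of most tissues, held 1.96% to 2.78% and Hk3 1.38% to 2.22% over the 7 libraries.

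Pfkp, the platelet type of phosphofructokinase, held 64.9% to 68.4% of that step, Pfkl 22.8% to 25.4% and Pfkm, the muscle type, 7.75% to 10.2%. Pkm held 67.3% to 70.9% of pyruvate kinase and Pklr, the liver and red cell form, the rest. Ldha held 99.0% to 99.2% of lactate dehydrogenase. In these 3 steps the shares of the groups overlapped for every gene.

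**Figure D4:**
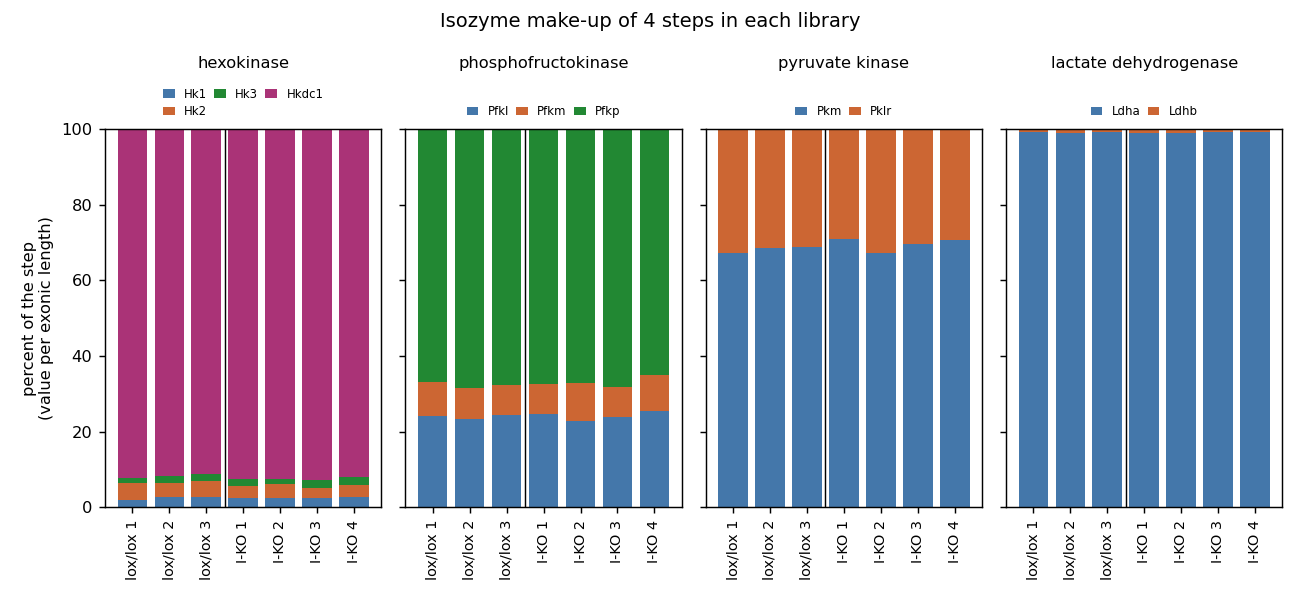
Share of each isozyme in the mRNA of 4 steps (percent, value per exonic length) in the 3 lox/lox and 4 I-KO libraries, which a black line separates. Hkdc1 makes up 91.1% to 92.9% of the hexokinases shown, Pkm between 67.3% and 70.9% of pyruvate kinase, and Ldha nearly all of lactate dehydrogenase.

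Of 18 other genes listed for the steps of the pathway, 14 were in the table and all 14 passed the filter on low values. Among these, 13 had a higher mean in I-KO, against 50.6% of all genes, and 1 (Eno2) a lower one. Their median log2 fold change was 0.09. It was 0.05 without I-KO replicate 1, 0.06 without lox/lox replicate 3 and 0.14 without the library labelled I-KO replicate 4. At an adjusted p of 0.05 by limma 0 of 14 passed (all genes, 0.0299%). At an unadjusted p of 0.05 by limma 1 of 14 passed, Aldoc (all genes, 4.74%). Aldoc, the aldolase of brain, was low, with 14.0 to 16.8 CPM in lox/lox and 16.2 to 19.9 CPM in I-KO, and a log2 fold change of 0.28 (SE 0.10; limma adjusted p = 0.954). Pgam1, for phosphoglycerate mutase, lay between 381 and 498 CPM, and Bpgm, which makes 2,3-bisphosphoglycerate, between 115 and 137 CPM. The remaining enolases were low, with Eno2, the neuronal form, at 2.98 to 4.45 CPM, Eno3, the muscle form, at 5.48 to 9.53 CPM and Eno1b at 1.57 to 2.68 CPM. Eno1b shares 73.4% of its 100-base windows with other genes, Eno1 among them, so its value is uncertain. Of the lactate dehydrogenases, Ldhb lay between 8.27 and 14.3 CPM and Ldhd between 3.5 and 4.05 CPM. Hkdc1 lay between 415 and 535 CPM, Pfkp between 400.4 and 484 CPM, and Pklr between 491 and 631 CPM.

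Genes that feed, control or reverse the pathway were counted in the same fit, and 0 of them passed an adjusted p of 0.05 by limma. Beside each count below stand the same shares of all genes, 50.6% with a higher mean in I-KO, 4.74% at an unadjusted p of 0.05, and 2.91% and 3.28% with all I-KO libraries above or below. Of 11 sugar, lactate and pyruvate transporters and partners, 7 were higher in I-KO (median log2 fold change 0.10, and 0.03 without lox/lox replicate 3 and 0.06 without I-KO replicate 1), and 1 had an unadjusted p below 0.05. Slc5a1, the sodium-glucose cotransporter SGLT1, had the highest level of the list, with 2798 to 4155 CPM in lox/lox and 3553 to 4627 CPM in I-KO. Bsg, for the basigin chaperone of lactate carriers, lay between 609 and 782 CPM. Slc2a5, the fructose transporter GLUT5, had 185.1, 150.1 and 127 CPM in lox/lox and 194, 204, 189.8 and 185.2 CPM in I-KO libraries, without overlap by a margin of less than 1 CPM. Its log2 fold change was 0.34 (SE 0.12; limma adjusted p = 0.954, unadjusted p = 0.0220), and 0.21 without lox/lox replicate 3. Mpc1, a subunit of the mitochondrial pyruvate carrier, also did not overlap, again by less than 1 CPM. It had 75.0 to 76.8 CPM in lox/lox and 77.0 to 87.9 CPM in I-KO. Its log2 fold change was 0.11 (SE 0.08; limma adjusted p = 0.954, unadjusted p = 0.185). In this list, 2 of 11 genes had all I-KO libraries above and 0 had all below.

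Pyruvate dehydrogenase takes pyruvate into the mitochondrion's citrate cycle, and its kinases PDK1 to PDK4 switch it off. Of 12 genes, 4 were higher and 8 lower in I-KO (median log2 fold change -0.06), and 3 kinases had an unadjusted p below 0.05 by limma, against 4.74% of all genes. The median lay between -0.11 and -0.01 with each library left out (I-KO replicates 2 and 3), and was -0.03 without lox/lox replicate 1. Pdk2 had 94.7, 80.1 and 84.5 CPM in lox/lox and 110, 97.7, 109 and 111 CPM in I-KO libraries, without overlap. Pdk3 had 26.5, 31.5 and 23.97 CPM in lox/lox and 22.6, 23.1, 21.4 and 20.7 CPM in I-KO libraries, also without overlap and in the other direction. Pdk4, a known target of PPARα, had 29.8, 21.0 and 59.2 CPM in lox/lox and 13.03, 11.6, 15.5 and 27.9 CPM in I-KO libraries. In Pdk4 the library labelled I-KO replicate 4 fell inside the lox/lox range and the other 3 below it. The log2 fold changes were 0.30 (SE 0.09) for Pdk2, -0.30 (SE 0.10) for Pdk3 and -1.02 (SE 0.36) for Pdk4, with adjusted p = 0.830, 0.954 and 0.954 from limma. Pdk3 was at -0.19 without lox/lox replicate 2. Pdk4 was at -0.61 without lox/lox replicate 3, its highest library, and at -1.27 without the library labelled I-KO replicate 4. Pdha1 and Dld, subunits of the complex, lay between 209 and 245 CPM and between 136 and 175 CPM.

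Of 8 genes of gluconeogenesis, which runs the pathway backwards, 7 were higher in I-KO and 3 had an unadjusted p below 0.05 by limma, each with all 4 I-KO libraries above all lox/lox libraries (all genes, 4.74% and 2.91%). These were Pcx, for pyruvate carboxylase, G6pc, for glucose-6-phosphatase, and Slc37a4, for its substrate transporter. Pcx had 89.2 to 110 CPM in lox/lox and 116 to 145 CPM in I-KO, with a log2 fold change of 0.35 (SE 0.11; limma adjusted p = 0.845). G6pc had 70.1 to 114 CPM and 123 to 147 CPM, with a log2 fold change of 0.47 (SE 0.17; limma adjusted p = 0.954), and 0.24 without lox/lox replicate 2. Slc37a4 had 106 to 125 CPM and 128 to 153 CPM, with a log2 fold change of 0.26 (SE 0.09; limma adjusted p = 0.954). Fbp2, for the muscle type of fructose bisphosphatase, lay between 233 and 265 CPM. The median log2 fold change of the list was 0.23, 0.13 without lox/lox replicate 2 and 0.04 without the library labelled I-KO replicate 4.

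Of 9 genes that bring fructose, galactose or mannose into the pathway, all had a higher mean in I-KO (median log2 fold change 0.08, and up to 0.16 with a library left out, lox/lox replicate 1). Khk, for the ketohexokinase that starts fructose breakdown, had 597, 577 and 567 CPM in lox/lox and 784, 643, 673 and 628 CPM in I-KO libraries, without overlap. Khk had a log2 fold change of 0.23 (SE 0.10; limma adjusted p = 0.954, unadjusted p = 0.0411). Tkfc, for the triose kinase of the same route, lay between 738 and 1001 CPM with overlap.

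Of 16 regulators of glycolysis tested, among them Hif1a, Myc and the 4 Pfkfb genes, 8 were higher and 8 lower in I-KO (median log2 fold change 0.0003, and -0.03 to 0.02 with each library left out) and 0 at an unadjusted p of 0.05 by limma. Pfkfb3, which makes the activator of phosphofructokinase, lay between 275 and 356 CPM in 6 libraries and at 179 CPM in the library labelled I-KO replicate 4. Mlxipl, for the glucose-responsive factor ChREBP, lay between 251 and 318 CPM. Of 13 genes induced by hypoxia outside glycolysis, 8 were higher and 5 lower, with a median of 0.03 that ran from -0.0038 to 0.07 with each library left out. Ankrd37 was the gene of that list with an unadjusted p below 0.05 by limma, at 12.8 to 19.9 CPM in lox/lox and 15.5 to 26.1 CPM in I-KO, with a log2 fold change of 0.50 (SE 0.20, adjusted p = 0.954). Vegfa, for the vessel growth factor, lay between 156 and 220.4 CPM and Ero1l, for an oxidase of the endoplasmic reticulum, between 76.8 and 113 CPM, both with overlap.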

How the data were processed

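RNA of 3 Ppara lox/lox and 4 Ppara I-KO duodena was sequenced. The deposited table gives, for each gene and library, a signal value: read counts that the authors scaled by adjusted library sizes (CPM). The submitters' processing notes name TopHat2 2.0.13, HTSeq 0.6.1, edgeR and mm10. About 20700000 to 25900000 reads per library fell on listed genes. Of the lines, 1 had no gene name and was dropped. Limma 3.58.1 (R 4.3.3) was run on log2(value + 1) of the 13399 genes above a value of 1 in 3 or more libraries, comparing the genotypes without covariates and with Benjamini-Hochberg adjustment over all genes. The value of 1 read is known to 3 digits, so read numbers are estimates, and counts were not tested because in 5 libraries under 95% of low values lay within 0.1 of a step. P-values measure the spread between these libraries, 1 per mouse by the study. Exact permutation tests used the 35 ways to choose 3 of 7 libraries.

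Members, lists and tests were chosen with earlier results of these data known. The text names the members, the isozyme genes, other pathway list genes with an unadjusted p below 0.05 or groups without overlap, the 2 highest per list, and 5 genes most like the members. Coordinates and lengths come from GENCODE (GRCm38), and promoters from RefSeq (GRCm38), found for all 9 members in the table. Of 168 list genes, 5 were matched by RefSeq synonym and 14 were not analysed. Further genes planned for the isozyme comparison are not reported here. Alternatives were other scalings, filters, a pseudocount of 0.5, an intensity trend, a replicate block and each library left out. Tables and exact tests were made with Python 3.11.15 and scipy 1.17.1.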

Additional observations from a re-analysis of the deposited data

Results flagged for a closer look

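In the 4 I-KO libraries, 66 reported values were searched for a library far from the other 3. Chance alone gives about 1 in 20, or 3.3 of these values. The search found 2, both sums of marker genes in the library labelled I-KO replicate 1. Its pancreatic acinar markers summed to 382 CPM, and those of I-KO replicates 2 to 4 to between 24.6 and 39.3 CPM, a gap of 0.959 of the range, above Dixon's 95% limit for 4 samples. Its skeletal muscle markers summed to 70.6 CPM, where the other 3 had between 13.1 and 21.2 CPM, a gap of 0.858 of the range. That sum rested mainly on Acta1, at 60.3 CPM. Ckm, the remaining marker in the sum, had 10.3 CPM there and 6.86 to 7.95 CPM in the other 3. No value of a glycolysis enzyme stood out by this measure. The 3 lox/lox libraries are too few for it.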

How the results depend on the processing

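Of 126 values of the 9 members under 14 alternatives, 123 kept their direction and 0 passed an adjusted p of 0.05 by limma (range 0.660 to 0.9998). Another filter or the intensity trend leaves a fold change as it was, so direction could not change there. The replicate block gave the same fold changes as leaving out I-KO replicate 4. The count of 123 is therefore not made of separate checks. Ldha turned to -0.0097 when columns were scaled to equal totals, and leaving out 1 library at a time it ran from -0.0512 (without lox/lox replicate 3) through -0.0396 (without I-KO replicate 1) to 0.1022. Among other enzymes, Eno2 turned to 0.0207 in the replicate block and ran from -0.1305 to 0.0207 (without I-KO replicate 4) leaving out 1 library at a time. Ldhb ran from -0.0898 (without lox/lox replicate 3) through -0.0744 (without I-KO replicate 1) to 0.1671, and Ldhd, which turned to -0.0095 with column totals, from -0.0350 (without lox/lox replicate 3) to 0.0481. Members called stayed at 0 in each alternative at the adjusted threshold. At an unadjusted p of 0.05 by limma, Hk2 passed with column totals, with the trend, without lox/lox replicate 2 and without I-KO replicate 1, Pkm without lox/lox replicate 1 and without I-KO replicate 4, and both with a filter at 5. The median of all genes was -0.03 with column totals. Genes called over the whole table were 4, between 3 and 5 with each library left out, and 635 with the looser threshold of 0.05 on unadjusted p. Same-numbered libraries share only a number, with correlations of their deviations of -0.01, 0.18 and -0.0090, and the fit with the replicate block, which leaves out I-KO replicate 4, called 3 genes and 0 members. By the longest transcript, the shares in lox/lox and I-KO were 3.02% and 2.32% for Hk2, 27.2% and 27.6% for Pfkl, 79.8% and 80.9% for Pkm, and 99.4% and 99.4% for Ldha, which follows from the other length.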
